A study of Mus musculus with 6 samples.

Results

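The 52 genes described here encode the machinery that licenses and copies chromosomal DNA. They were listed by the known role of their products, not by their values, although earlier results of these data were known. The roles are origin recognition, licensing, MCM proteins, the kinase that fires origins, partners of the replicative helicase, the sliding clamp and its loader, polymerases and primase, single-strand binding, lagging-strand completion, nucleotide supply, and chromatin assembly and fork integrity. All 52 were found among the 26431 genes of the table, and all 52 were among the 14446 genes that passed the filter on low values, a mean of at least 0.5 RPKM over the 6 libraries. RPKM counts the reads of a transcript per kilobase of its length, corrected for how many reads each library had mapped.

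Tibialis anterior (TA) muscle was taken from 3 uninjured mice and from 3 mice at day 3 after cardiotoxin (CTX) injury, with 1 library per mouse. All mice were C57BL/6, labelled female and 8 to 10 weeks old, although the study's general methods name male mice as the default. The injured muscle had received about 50 µl of 10 µM CTX, a toxin from Naja mossambica venom that destroys muscle fibres, and the uninjured group was labelled untreated. The comparison asks how the transcripts of this machinery stood in regenerating muscle.

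In a cell that leaves quiescence, the origin recognition complex binds DNA and, with Cdc6 and Cdt1, loads the MCM2-7 helicase onto origins, a step called licensing. Geminin holds Cdt1 inactive once replication has begun, and the Dbf4-dependent kinase, Cdc45 and the GINS complex turn the loaded helicase into a moving fork. Adult muscle fibres do not replicate their nuclear DNA, whereas satellite cells, the stem cells of muscle, and infiltrating or resident mononuclear cells can divide after injury. Whole muscle was sequenced, so more cells of a type and more RNA per cell cannot be told apart.

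The libraries held 34.2 to 43.1 M mapped reads, and 1 read in a transcript of 1 kb was worth 0.0232 to 0.0292 RPKM. Most genes of the table stood higher at day 3: the median log2 fold change of the 14446 genes was 1.35, and 60.5% of them were called higher against 7.96% called lower. Genes were called where limma gave an adjusted p (Benjamini-Hochberg) below 0.05 and the change on log2(RPKM + 0.1) was 1 or more in size. Rescaling the libraries moved that median to 0.95 (ERCC spike-ins), 0.03 (median of ratios), -0.07 (quantile) and -0.73 (ribosomal protein genes), so the changes of the 52 are also plotted under these scalings. All 9 markers of adult fibres were called lower, and their summed level fell from 44341 to 47689 RPKM in uninjured libraries to 1466 to 7559 RPKM at day 3. All 11 measured markers of macrophages were called higher, their summed level going from 32.3 to 47.6 RPKM to 4340 to 6085 RPKM, as were 6 of 7 markers of myoblasts and satellite cells, 6 of 8 of fibroblasts and 0 of 6 of endothelial cells. The measured markers of lymphocytes (2 of 2, with 5 more under the filter) and neutrophils (4 of 4, with 2 more under it) were called higher as well. The part of these cell types in the values below was not tested.

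In RPKM as deposited, transcripts of the replication machinery stood higher at day 3 for all 52 genes, 12 of which went below 0 under at least 1 other scaling. The call was reached by 48 of the 52 (92.3%), where 60.5% of all tested genes were called higher, and none of the 52 was called lower. Their median log2 fold change was 3.28, against 1.35 over all tested genes. Every day 3 library lay above every uninjured library for all 52 genes, as it did for 78.5% of all tested genes. Summed over the 52, the level was 116, 115 and 116 RPKM in uninjured replicates 1, 2 and 3 and 833, 836 and 1028 RPKM in day 3 replicates 1, 2 and 3. Adjusted p-values (limma, Benjamini-Hochberg) of the 52 ran from 8.23e-08 to 3.04e-04, and the 4 genes not called, Orc3, Pold2, Rpa1 and Rpa2, fell short of the fold minimum.

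**Figure D1:**
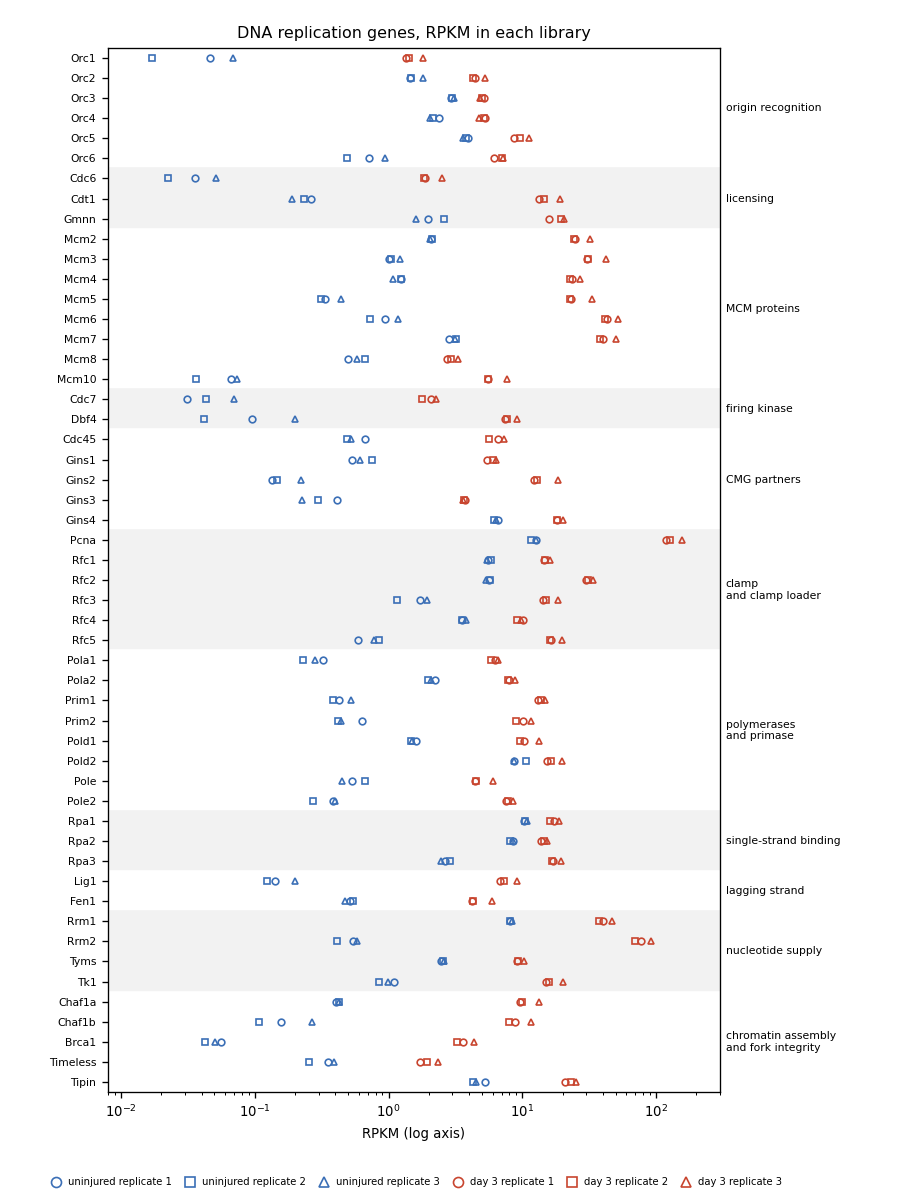
RPKM of the 52 replication genes in each of the 6 libraries, on a log axis, with genes in rows grouped by role, uninjured libraries in blue and day 3 libraries in red (marker shape gives the replicate). For all 52 genes the day 3 points lie to the right of the uninjured points, with a wide gap for Rrm2 and narrow gaps for Pold2, Rpa1, Orc3 and Rpa2.

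The call held under other scalings for the larger changes. With the median of ratios, 37 of the 52 (71.2%) were called higher against 25.6% of all tested genes, and with ribosomal protein genes as the reference 31 (59.6%) against 15.9%. The last scaling also called 4 of the 52 lower, namely Orc3, Pold2, Rpa1 and Rpa2, where it called 41.8% of all tested genes lower. Called higher under the deposited values and the 4 other scalings alike were 31 of the 52, and 15.3% of all tested genes. Of the 52, 46 lay above the median change of all genes.

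**Figure D2:**
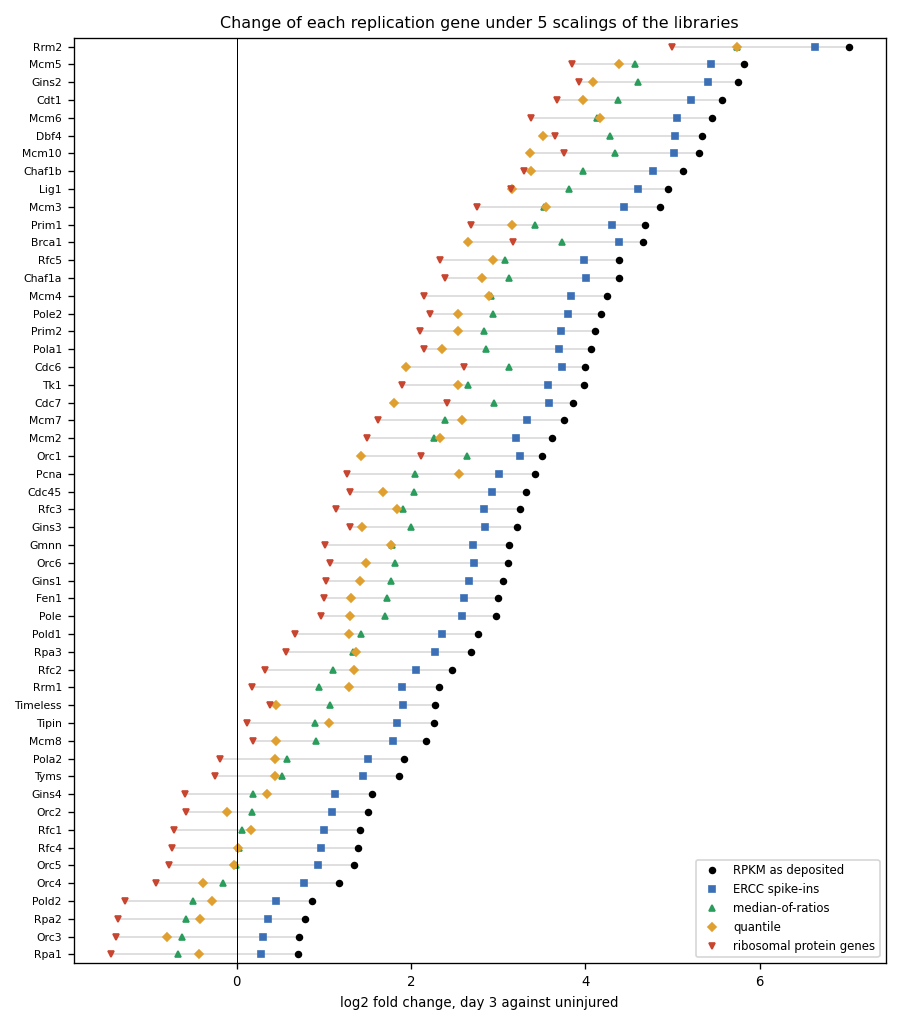
Log2 fold change of each of the 52 genes (rows, ordered by the change in deposited RPKM) under 5 scalings of the libraries, 1 symbol per scaling. Between Rrm2 at the top and Mcm8 all symbols lie above 0, whereas 12 genes from Pola2 downward have at least 1 symbol below 0.

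In uninjured muscle 26 of the 52 genes were under 1 RPKM in every library, with log2 fold changes of 2.18 to 7.02, and 24 were at 1 RPKM or more in every library, with changes of 0.70 to 4.85. The uninjured level is the base of the fold, so a low level raises the change by construction, and the scarcest genes passed the filter through their day 3 values. At day 3 all 52 genes exceeded 1 RPKM in every library and 24 exceeded 10 RPKM. These counts use 1 transcript per gene, and some genes pass a threshold only when their transcripts are summed. Summed uninjured means were 1.93 (Orc6), 1.53 (Fen1), 1.30 (Timeless) and 1.07 RPKM (Cdc45). Summed day 3 means included 21.2 (Lig1) and 15.6 RPKM (Dbf4). For the scarcest genes the uninjured level rests on few reads, from 16 pooled over the 3 libraries for Orc1 upward, and the constant of 0.1 makes their log2 fold change an understatement.

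The largest change was that of Rrm2, the small subunit of ribonucleotide reductase, which makes deoxynucleotides and is known for its tie to S phase. Rrm2 was at 0.543, 0.410 and 0.580 RPKM in the uninjured libraries and at 76.6, 69.6 and 91.5 RPKM at day 3. The groups were far apart, with a log2 fold change of 7.02 (SE 0.14, adjusted p = 8.23e-08, limma) and of 4.99 under the least favourable scaling. In pooled reads relative to the library totals, the day 3 level was 155 times the uninjured level, with an exact 95% interval of 131 to 185 that covers counting error only.

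**Figure D3:**
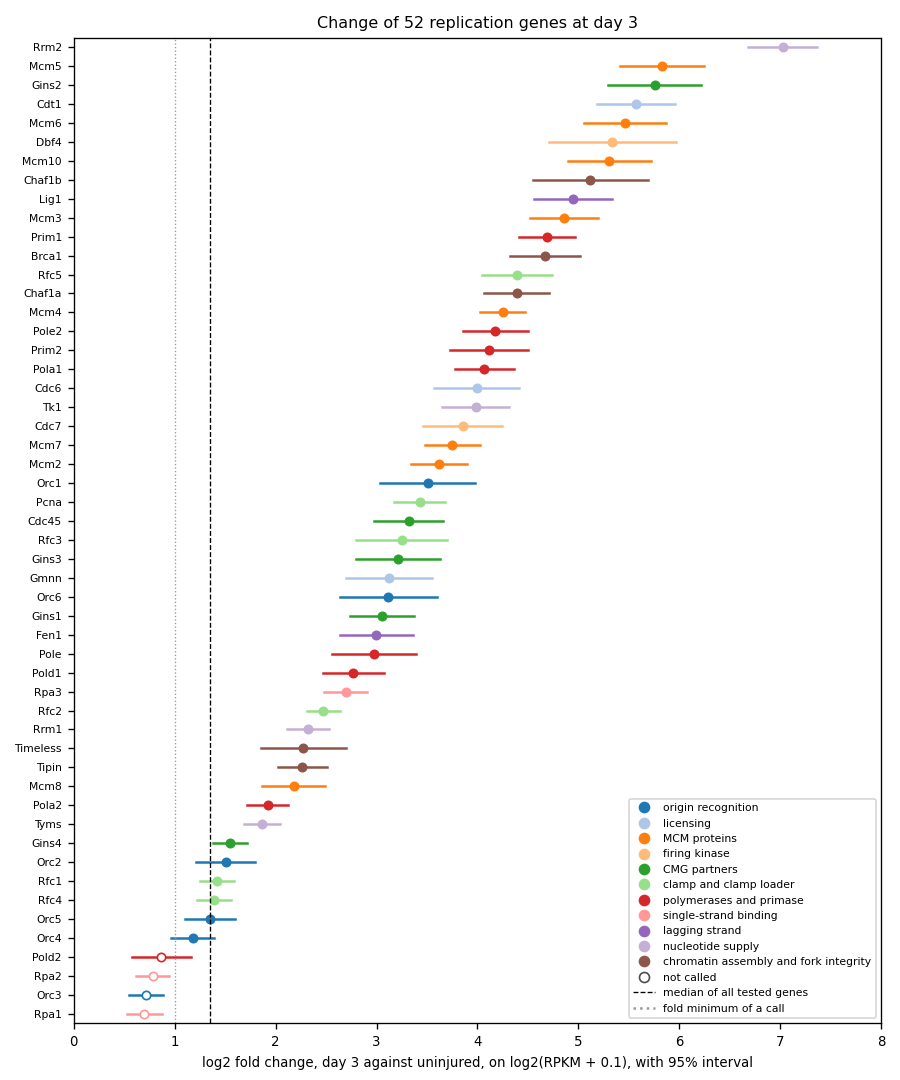
Log2 fold change of day 3 against uninjured with its 95% interval (limma, log2(RPKM + 0.1)) for each of the 52 genes in rows, coloured by role, with the median of all tested genes as a dashed line and the fold minimum of a call as a dotted line. Rrm2, Mcm5 and Gins2 lead, and the open circles of Pold2, Rpa2, Orc3 and Rpa1 lie under 1, while 12 of the 52 go below 0 under at least 1 other scaling.

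Promoter sequence gives a view of the genes that the list did not use. E2F factors bind the promoters of many genes needed in S phase, and their site is commonly written as a run of T bases followed by C and G bases. RefSeq windows (GRCm38.p6) of 300 bases, 250 before a gene's start and 50 after it, were at hand for 43 of the 52 genes. Gmnn, Mcm4, Gins1, Gins2, Gins4, Rfc2, Prim2, Pole and Tipin had none. The 4 runs TTTCCCGC, TTTGGCGC, TTTCGCGC and TTTGCCGC were searched on both strands, and a gene with several windows counted once.

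A match stood in the windows of 15 of the 43 genes (34.9%), in 4.51% of the 9876 tested genes that have a window, and in 2.60% of all 27025 genes with one. The 15 genes were Orc1, Orc3, Cdc6, Cdt1, Mcm3, Mcm5, Mcm6, Mcm7, Mcm8, Gins3, Rfc3, Pola1, Pold1, Pole2 and Lig1. Of the 26 genes with a window that were called higher under all 5 scalings, 12 (46.2%) had a match, and of the other 17 genes 3 had one (17.6%). These shares are descriptions of letters, not of bound sites, and genes without a match include Rrm2 and Pcna.

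In 9 genes a match lay wholly before the start, and 8 of them are shown, from the largest change, Mcm5, to the smallest, Orc3. Rfc3, whose match lies next to the start, and a further match in Mcm6, nearer the start, are not shown. Each line runs 5′ to 3′ on the gene's strand, with the matched letters in capitals. In Mcm5 and Mcm6, matches to TTTCGCGC and TTTGGCGC on opposite strands share 4 letters and together make a run of 12.
Mcm5, chr8:75109332-75109391, plus strand: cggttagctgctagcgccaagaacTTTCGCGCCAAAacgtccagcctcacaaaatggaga
Mcm6, chr1:128359780-128359839, minus strand: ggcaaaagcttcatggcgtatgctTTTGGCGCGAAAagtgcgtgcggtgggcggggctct
Pola1, chrX:93632262-93632317, minus strand: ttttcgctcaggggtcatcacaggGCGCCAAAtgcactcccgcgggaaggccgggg
Cdc6, chr11:98907989-98908044, plus strand: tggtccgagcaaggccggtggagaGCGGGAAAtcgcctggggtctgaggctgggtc
Mcm7, chr5:138172017-138172072, minus strand: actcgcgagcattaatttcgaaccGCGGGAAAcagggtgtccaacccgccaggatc
Orc1, chr4:108579403-108579453, plus strand: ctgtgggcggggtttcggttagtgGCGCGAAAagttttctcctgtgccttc
Gins3, chr8:95633494-95633549, plus strand: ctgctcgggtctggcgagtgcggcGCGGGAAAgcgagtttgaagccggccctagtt
Orc3, chr4:34614952-34615007, minus strand: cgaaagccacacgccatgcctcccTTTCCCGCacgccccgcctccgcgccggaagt
Orc3 carries the letters and was not called. Another pair of motifs was read in the same windows. CCAAT, the box bound by NF-Y, stood in 26 of the 43 genes (60.5%) and in 42.8% of tested genes with a window. TTTGAA, a core of the element found in genes of late cell cycle stages, stood in 7 of the 43 (16.3%) and in 14.2% of tested genes with a window. None of the runs searched for these 3 motifs is contained in another.

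The 6 origin recognition genes differed in the size of their change, and for Orc2 to Orc5 the direction depended on the scaling. Orc1, the subunit whose protein is known to come and go with the cell cycle, was at 0.0463, 0.0170 and 0.0686 RPKM in the uninjured libraries and at 1.35, 1.43 and 1.81 RPKM at day 3. Its groups lay far apart (log2 fold change 3.51, SE 0.20; 1.43 under the least favourable scaling), although it was the lowest of the 52 at day 3. Orc6, which joins the complex loosely and is needed for MCM loading, was at 0.712, 0.492 and 0.947 RPKM and then at 6.19, 7.01 and 7.22 RPKM, also with no overlap (3.12, SE 0.20; least favourable 1.08).

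The core subunits Orc2 to Orc5 had smaller log2 fold changes. Orc5 had the highest single transcript of the complex, at 3.90, 3.76 and 3.62 RPKM in uninjured and 8.61, 9.61 and 11.2 RPKM in day 3 muscle, a log2 fold change of 1.35 (SE 0.10). With transcripts summed, Orc6 (mean 19.4 RPKM) stood highest at day 3. Orc2 was at 1.45, 1.47 and 1.8 RPKM and then at 4.39, 4.28 and 5.26 RPKM (1.50, SE 0.12). Orc4 was at 2.37, 2.16 and 2.02 RPKM and then at 5.25, 5.16 and 4.78 RPKM (1.18, SE 0.09). These 3 were called in deposited RPKM. Relative to the median of all genes Orc2 stood at 0.15 and Orc4 at -0.17, Orc5 matched it within 0.01, and each of the 3 went below 0 under the quantile and ribosomal protein scalings, Orc4 and Orc5 under the median of ratios too. Orc3 was at 2.91, 2.97 and 3.10 RPKM and then at 5.15, 4.98 and 4.86 RPKM, without overlap, but its log2 fold change of 0.72 (SE 0.07) missed the minimum and was -0.63 relative to the median of all genes.

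Ratios within a library set the subunits against each other directly, here in deposited RPKM on the most abundant transcript of each gene. A scaling between libraries would cancel in such a ratio without the constant of 0.1. With the constant, ratios of scarce genes still move with the scaling. Relative to the mean of Orc2 to Orc5, Orc1 stood at a log2 ratio of -4.19 ± 0.24 in uninjured and -1.87 ± 0.15 in day 3 muscle (SD, n = 3), a difference of 2.32, and Orc6 at -1.71 ± 0.39 and 0.22 ± 0.08, a difference of 1.93. With a constant of 1 these differences were 0.32 and 1.24, so their size depends on that constant. In each of the 17 ratios computed, an exact two-sided permutation test over the 6 libraries can go no lower than p = 0.1, so none could pass 0.05. That smallest value was reached by 16 of them (adjusted p = 0.106 over the 17), these 2 included.

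Licensing factors rose together. Cdt1, which brings MCM2-7 to the origin, was at 0.265, 0.233 and 0.188 RPKM in uninjured and 13.2, 14.6 and 19.2 RPKM in day 3 muscle (log2 fold change 5.57, SE 0.16). Its inhibitor geminin, Gmnn, was at 1.99, 2.60 and 1.60 RPKM and then at 15.9, 19.5 and 20.4 RPKM (3.13, SE 0.18). Both were called higher under all 5 scalings, and the ATPase Cdc6, the loader's other arm, was too (3.99, SE 0.18). The log2 ratio of Cdt1 to Gmnn went from -2.70 ± 0.28 to -0.25 ± 0.17 (SD, n = 3), so the transcript of the factor approached that of its inhibitor (exact permutation p = 0.1, the smallest possible). With a constant of 1 in place of 0.1 this difference of 2.45 was 1.07.

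The 8 MCM genes include the 6 subunits of the replicative helicase. All 8 were called higher, with log2 fold changes of 2.18 to 5.82 and a median of 4.55, and 7 of them, all but Mcm8, under all 5 scalings. Mcm5 had the second largest change of the 52, from 0.333, 0.314 and 0.438 RPKM to 23.1, 22.7 and 33.0 RPKM (5.82, SE 0.18; least favourable 3.84). Mcm6 was the most abundant at day 3, from 0.945, 0.723 and 1.17 RPKM to 42.9, 41.2 and 52.3 RPKM (5.46, SE 0.17; least favourable 3.37).

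At day 3 the 6 subunits of the hexamer had means of 24.4 (Mcm4) to 45.5 RPKM (Mcm6), against 0.361 (Mcm5) to 3.05 RPKM (Mcm7) in uninjured muscle, so the subunits, which share 1 ring in equal number, stood closer in level after injury. Mcm6 and Mcm7, the highest pair, overlapped at day 3. Against the core origin recognition genes Orc2 to Orc5, the mean of Mcm2 to Mcm7 went from a log2 ratio of -0.99 ± 0.07 to 2.45 ± 0.16 (SD, n = 3), a difference of 3.44 with no overlap (exact permutation p = 0.1, the smallest possible).

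The remaining MCM genes are no part of the ring. Mcm8, which acts with Mcm9 in recombination, was at 0.50 to 0.671 RPKM in uninjured and 2.75 to 3.30 RPKM in day 3 muscle (2.18, SE 0.13). Its log2 ratio to Mcm2-Mcm7 differed by -2.45 at day 3. Mcm10, which helps to start the fork, went from 25 pooled reads to 2315, a level 106 times higher (exact 95% interval 71.5 to 164, counting error only), with a log2 fold change of 5.31 (SE 0.17). Its ratio to Mcm2-Mcm7 was higher by 0.68, but the difference was -1.09 with a constant of 1, so its direction depends on that constant.

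Both parts of the kinase that fires origins rose. Dbf4, the regulatory subunit, was at 0.0950, 0.0418 and 0.201 RPKM in uninjured and 7.46, 7.74 and 9.16 RPKM in day 3 muscle (5.34, SE 0.27). Cdc7, the catalytic subunit, had 17 pooled reads in uninjured muscle and 640 at day 3 (3.85, SE 0.16). Each was called higher under all 5 scalings. The table lists several transcripts of Cdc7 at like levels, and the log2 ratio of Dbf4 to Cdc7, higher by 1.48 at day 3 for the most abundant transcripts, was higher by 0.87 when transcripts were summed.

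Cdc45 and GINS join MCM2-7 to form the active helicase, and all 5 genes were called higher. Gins2 had the third largest change of the 52, from 0.134, 0.147 and 0.223 RPKM to 12.3, 12.8 and 18.4 RPKM (5.75, SE 0.20; least favourable 3.93). Its uninjured level rests on 21 pooled reads. Gins4 was the most abundant of the 4 GINS genes, from 6.62, 6.09 and 6.30 RPKM to 18.1, 18.1 and 20.1 RPKM, and its change of 1.55 (SE 0.07) was below 0 under the ribosomal protein scaling. Gins1, Gins3 and Cdc45 lay between them, at 3.06, 3.21 and 3.32. The 4 subunits of GINS, which stand in equal number in the complex, thus differed more in uninjured muscle, where their means ran from 0.168 to 6.34 RPKM, than at day 3, where they ran from 3.65 to 18.8 RPKM.

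Pcna, the sliding clamp that tethers polymerases to DNA, was the most abundant of the 52 at day 3. It was at 12.7, 11.5 and 12.6 RPKM in uninjured and 119, 126 and 155 RPKM in day 3 muscle, a log2 fold change of 3.43 (SE 0.11; least favourable 1.27). Even its lowest day 3 library exceeded the highest of Rrm2, the next gene in that order. In uninjured muscle Pcna (mean 12.3 RPKM) stood first among single transcripts, before Rpa1 (10.6 RPKM), whose transcripts summed to 20.9 RPKM.

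The subunits of the clamp loader had unequal changes. Rfc5 had a log2 fold change of 4.39, Rfc3 of 3.25 and Rfc2 of 2.47, whereas the large subunit Rfc1 had 1.42 and Rfc4 1.39, and these last 2 went below 0 under the ribosomal protein scaling. The log2 ratio of Rfc1 to the mean of Rfc2 to Rfc5 differed by -1.45, from 1.29 ± 0.12 to -0.16 ± 0.03 (SD, n = 3; exact permutation p = 0.1, the smallest possible). Exons of Rfc4 overlap Eif4a2, those of Rfc5 overlap Wsb2 and those of Rfc2 overlap Lat2, all on the opposite strand in GENCODE M21. The same holds for Gins2 with Gse1, Chaf1a with Ubxn6, Fen1 with Tmem258, Orc6 with Vps35, Orc2 with Nif3l1, Orc4 with Acvr2a and Mbd5, Mcm7 with Ap4m1 and Cops6, and Tk1 with Afmid. These overlaps are over all GENCODE exons and can lie outside the RefSeq transcripts counted. Chaf1a and Ubxn6 share 4648 bases, where the Chaf1a transcript used has 3308. Lat2, which shares 952 bases with Rfc2, had means of 0.290 RPKM in uninjured and 23.6 RPKM in day 3 muscle. Eif4a2 had 38.2 and 45.8 RPKM, and Wsb2 29.2 and 45.9 RPKM. Since strand is not stated for these libraries, reads of such partners cannot be told apart in shared bases that lie within the transcripts counted. Orc5 shares 90 bases with Gm15421 on the same strand, a gene at means of 4.46 RPKM in uninjured and 19.2 RPKM in day 3 muscle. The part of partner reads in these changes was not tested.

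Among polymerases and primase, catalytic subunits and some of their partners had unequal changes, and Pola2 and Pold2 went below 0 under other scalings. Prim1 and Prim2, which make the RNA primer, had log2 fold changes of 4.69 and 4.11, Pola1, the catalytic subunit of polymerase alpha, 4.07, and Pole2, an accessory subunit of the leading-strand polymerase epsilon, 4.18. Pole, its catalytic subunit, had 2.98 and Pold1, the catalytic subunit of polymerase delta, 2.77. All 6 were called higher under the deposited, ERCC, median-of-ratios and quantile scalings.

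Pold2, the accessory subunit of polymerase delta, was the most abundant of this group at day 3 and the 1 not called. It was at 8.68, 10.7 and 8.65 RPKM in uninjured and 15.3, 16.4 and 19.7 RPKM in day 3 muscle, a log2 fold change of 0.87 (SE 0.12) that was below 0 under the median-of-ratios, quantile and ribosomal protein scalings. The log2 ratio of Pold2 to Pold1 differed by -1.90, from 2.53 ± 0.22 to 0.64 ± 0.11 (SD, n = 3). Pola2, the accessory subunit of polymerase alpha, was called higher (1.92, SE 0.09) but was below 0 under the ribosomal protein scaling, and its log2 ratio to Pola1 differed by -2.14 (-0.92 with a constant of 1). The accessory subunit of polymerase epsilon went the other way: the log2 ratio of Pole2 to Pole was -0.53 ± 0.47 in uninjured and 0.67 ± 0.16 in day 3 muscle (SD, n = 3), a difference of 1.20. The size of this difference depends on the constant of 0.1.

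**Figure D4:**
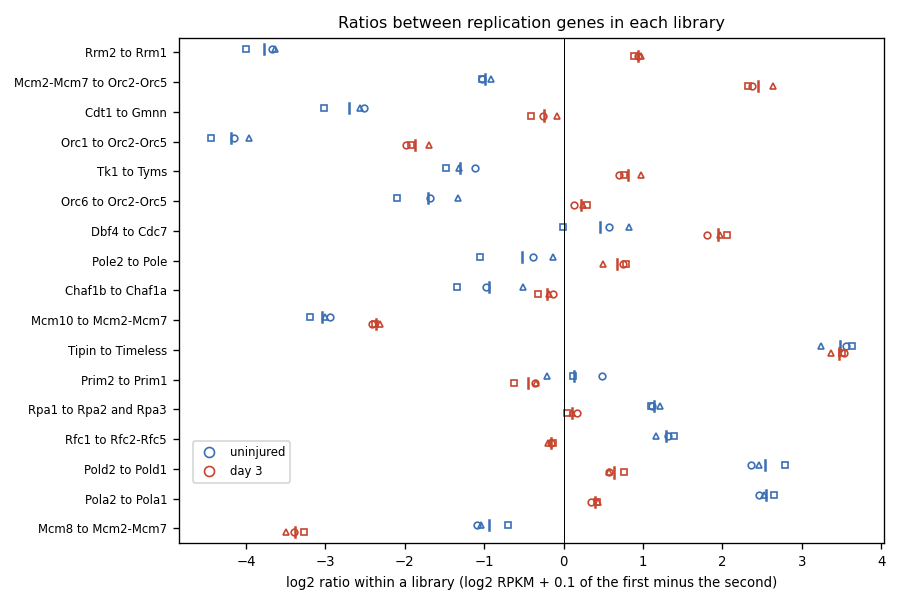
Log2 ratio between replication genes within each library, for 17 ratios in rows, with uninjured libraries in blue, day 3 libraries in red, marker shape for the replicate and a bar at the group mean. The ratios of Pola2 to Pola1 and Pold2 to Pold1 lie to the left at day 3, those of Pole2 to Pole, Rrm2 to Rrm1 and Mcm2-Mcm7 to Orc2-Orc5 lie to the right, and Tipin to Timeless is the 1 ratio whose groups overlap.

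Replication protein A, which coats single-stranded DNA and also serves repair, was the group with the fewest calls. Rpa1, the large subunit, was at 10.3, 10.5 and 10.8 RPKM in uninjured and 17.1, 16.0 and 18.6 RPKM in day 3 muscle, the smallest log2 fold change of the 52 (0.70, SE 0.07). Rpa2, the middle subunit, was at 8.48, 8.09 and 8.56 RPKM and then at 13.7, 14.5 and 15.3 RPKM (0.78, SE 0.07). Neither was called, they stood at -0.65 and -0.57 relative to the median of all genes, and both went below 0 under every scaling other than the deposited values and ERCC. Rpa3, the small subunit, rose from 2.64, 2.87 and 2.45 RPKM to 16.9, 16.8 and 19.4 RPKM (2.69, SE 0.09), and at day 3 its libraries overlapped those of the leading Rpa1 transcript, although the transcripts of Rpa1 summed to 33.9 RPKM.

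Both genes of lagging-strand completion rose. DNA ligase Lig1, which seals Okazaki fragments, was at 0.142, 0.124 and 0.20 RPKM in uninjured and 6.83, 7.34 and 9.17 RPKM in day 3 muscle (4.95, SE 0.16; least favourable 3.15). The flap nuclease Fen1, which trims their ends, went from 0.476 to 0.541 RPKM in uninjured to 4.24 to 5.98 RPKM in day 3 muscle.

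In nucleotide supply the subunits of ribonucleotide reductase had unequal changes. Rrm1, the large subunit, was at 8.10, 8.05 and 8.36 RPKM in uninjured and 40.0, 37.7 and 46.6 RPKM in day 3 muscle (2.32, SE 0.09), so Rrm2 stood below it before injury and above it at day 3. Rrm1 was called higher under 3 of the 5 scalings, its change being 0.95 with the median of ratios and 0.17 with ribosomal protein genes. The log2 ratio of Rrm2 to Rrm1 went from -3.77 ± 0.20 to 0.93 ± 0.05 (SD, n = 3), the largest difference of the 17 ratios at 4.70 (exact permutation p = 0.1, the smallest possible). The size of this difference depends on the constant of 0.1. Tk1, the thymidine kinase of the salvage route, was called higher by 3.98 (SE 0.14). Tyms, which makes thymidylate from new, was called higher by 1.87 (SE 0.08) and was below 0 under the ribosomal protein scaling. A pseudogene of Tyms, Tyms-ps, is in the table at 0.626 to 0.896 RPKM in uninjured and 2.73 to 2.95 RPKM in day 3 muscle, and reads could pass between the pair.

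All 5 genes of chromatin assembly and fork integrity were called higher. Chaf1a and Chaf1b, subunits of the factor that lays histones onto new DNA, had log2 fold changes of 4.39 and 5.12, and Brca1, which protects stalled forks and acts in repair, had 4.67. These 3 were called higher under all 5 scalings. Tipin, which travels with the fork together with Timeless, was the most abundant of the 5, at 5.24, 4.31 and 4.54 RPKM in uninjured and 20.7, 23.1 and 25.0 RPKM in day 3 muscle (2.26, SE 0.10). Timeless had 2.28 (SE 0.18), and the log2 ratio of Tipin to Timeless was 3.48 ± 0.21 and 3.46 ± 0.09 (SD, n = 3), with overlapping groups and a difference of -0.01 (exact permutation p = 0.9). With a constant of 1 this difference was 0.91. Tipin and Timeless were each called higher under 3 of the 5 scalings, with least favourable changes of 0.12 and 0.38. The table lists 4 transcripts of Timeless at like levels, so the level of 1 of them may be a share of the gene's, whose sum was 1.30 RPKM in uninjured and 7.66 RPKM in day 3 muscle.

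Transcripts other than the one used were read too. Of the 52 genes, 16 had several transcripts in the table, 25 further ones in all. Each of the 25 lay higher in every day 3 library than in every uninjured library. Transcripts of a gene can share reads, and how such reads were assigned is not given. The 25 are therefore no evidence separate from that of their genes. The 78.5% of all tested genes with such a separation is a share of genes, not of further transcripts. With transcripts summed per gene, 48 of the 52 were again called higher, where 60.5% of all genes tested in that way were.

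The 3 day 3 libraries did not stand alike. Replicate 3 was the highest of the 3 for 48 of the 52 genes, and replicate 1 for the other 4. Against the mean of the other 2 libraries, replicate 3 was higher by a median of 0.28 on the log2 scale over the 52 genes, with 49 of them above 0, where the median over all tested genes was 0.06. Lists described below shared this: 27 of 27 mitosis genes were higher in replicate 3, by a median of 0.24, and 35 of 38 other replication factors, by 0.22. In the same library all 11 macrophage markers were higher, by a median of 0.38, myoblast and satellite cell markers were at a median of -0.04, and adult fibre markers at -2.30. The part of these marker differences in the replication genes was not tested. Without day 3 replicate 3, 48 of the 52 were still called higher, where 60.2% of all tested genes were. The median log2 fold change of the 52 was then 3.23.

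**Figure D5:**
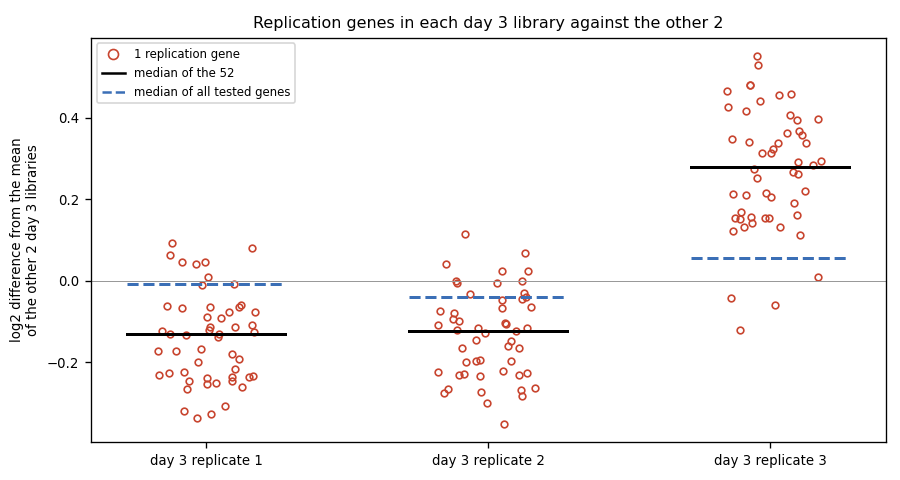
Log2 difference of each replication gene in 1 day 3 library from the mean of the other 2 day 3 libraries (circles), with the median of the 52 genes as a black line and that of all tested genes as a dashed blue line. In replicate 3, 49 of the 52 circles lie above 0 and the black line is at 0.28, against a dashed line at 0.06.

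Other gene lists place the 52 among their neighbours. Of 38 other replication factors, 35 were called higher and none lower in deposited RPKM, where 60.5% of all tested genes were called higher, with a median log2 fold change of 3.26. Under the median of ratios 30 were called higher, where 25.6% of all tested genes were. Under ribosomal protein scaling 23 were called higher and 3 lower, against 15.9% and 41.8% of all tested genes. Cyclins A2 (Ccna2, 6.48) and E1 (Ccne1, 6.33), which drive Cdk2 in S phase, had the largest changes, and the histone chaperone Asf1a (0.74) and Rif1 (0.86), which sets the timing of origins, the smallest, the last 2 being below 0 under both of these scalings. Rif1, Asf1a and Pole4 were not called. Of 17 further genes of nucleotide supply, 15 were called higher in deposited RPKM, 10 under the median of ratios and 5 under ribosomal protein scaling, led by the deoxycytidine kinase Dck (4.56) and by Samhd1 (3.84), which breaks down deoxynucleotides. Rrm2b, the small reductase subunit that p53 controls and that serves non-dividing cells, was at 6.18, 6.27 and 6.43 RPKM in uninjured and 4.43, 4.49 and 3.54 RPKM in day 3 muscle, a log2 fold change of -0.59 (SE 0.10). It was not called in deposited RPKM, and its log2 fold change was -1.95 under the median of ratios and -2.71 under ribosomal protein scaling.

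A list of 27 genes with roles in mitosis was described too. All 27 were called higher in deposited RPKM and under the median-of-ratios, quantile and ribosomal protein scalings. Of all tested genes, 60.5% were called higher in deposited RPKM, 25.6% under the median of ratios and 15.9% under ribosomal protein scaling. Quantile scaling called 3460 of the 14446 tested genes higher. The median log2 fold change of the 27 was 5.76, against 3.28 for the 52. The topoisomerase Top2a (7.28) and cyclin B1 (Ccnb1, 7.26) led, and Aurka (3.43) came last. Summed over each list, uninjured levels were 7.1 to 9.6 RPKM for the 27 and 115 to 116 RPKM for the 52. A low uninjured level raises the fold by construction. The difference between the lists was not tested.

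Genes of DNA synthesis outside the replication fork were read beside these. Of 9 repair and translesion genes that passed the filter, 5 were called higher (55.6%, where 60.5% of all tested genes were). Their median was 1.04, from Poli (2.31) to the base excision repair polymerase Polb (-0.54). Polq and Poln, also on this list, fell under the filter. Their means were 0.0332 and 0.0767 RPKM in uninjured and 0.869 and 0.227 RPKM in day 3 muscle. The counts that follow leave them out. Under the median of ratios 1 was called higher, and under quantile and ribosomal protein scaling none was. Of 9 measured genes of mitochondrial DNA replication, 2 were called higher (22.2%; 0 under the median of ratios), with a median of 0.56, from Polg2 (1.32) to Tfb2m (-0.79). No member of either list was called lower in deposited RPKM, but 3 of the 9 repair and 4 of the 9 mitochondrial genes were under the median of ratios, and 6 and 8 of 9 under ribosomal protein scaling. Both medians lie under the 1.35 of all tested genes.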

How the data were processed

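RNA of TA muscle was sequenced as single reads of 50 bases. The authors aligned reads with BWA to RefSeq mouse transcripts (CASAVA 1.4 and SAMtools 0.1.19 are among their tools) and deposited RPKM values for 34302 sequences, 92 of them ERCC spike-ins, not pooled over replicates. How reads matching several transcripts were assigned, and the strand of the libraries, are not given in the sources used here. Every value above the lowest, 0.01 RPKM, came to a whole read (100%, within 0.01 read) when multiplied by transcript length and library total, and 0.01 was taken as 0 reads.

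For the 5019 genes with several transcripts the one with the highest mean was used. limma 3.58.1 (R 4.3.3, eBayes with trend) was fitted to log2(RPKM + 0.1) for 14446 genes averaging at least 0.5 RPKM, with p-values adjusted over all of them, and was tested on simulated data. Tables and permutation tests used SciPy 1.17.1, NumPy 2.4.6 and pandas 2.3.3 under Python 3.11.15, and plots matplotlib 3.10.9. Scalings used the median of ratios, quantiles, 77 ribosomal protein genes or the ERCC sum. Other alternatives varied the constant (0.01 and 1), the filter (none, or 2 RPKM), the limma options, voom on recovered reads, the replicate block, the transcript rule and the libraries. Exons came from GENCODE M21.

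The genes and lists were chosen with earlier results of these data known. Values in every library were given, by rule, for the 3 largest and 3 smallest changes, the most abundant gene of each role at day 3, every gene not called, and Pcna, Orc1 to Orc6, Cdt1 and Gmnn; of other lists, up to 2 genes at each end. Rrm1 was added after its values were seen. Replicates are single mice.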

Additional observations from a re-analysis of the deposited data

How the results depend on the processing

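The count of 48 replication genes called higher was the same with a constant of 0.01, no filter, robust eBayes, voom on recovered reads (which called 8869 of all genes higher and 1173 lower), summed transcripts and without each library in turn (48 to 48). It was 47 with a constant of 1, where Orc4 was lost, 41 of the 45 genes left at a filter of 2 RPKM, 45 with ERCC, 38 with quantile and 37 with median-of-ratios scaling. It was 31 with ribosomal protein scaling, and 31 under all 5 scalings alike, a count added after the data were seen. The count called lower was 0 except under ribosomal protein scaling, where it was 4. Over all genes the median-of-ratios, quantile and ribosomal protein scalings gave 3700, 3460 and 2302 called higher, in place of 8740, and 3356, 3561 and 6044 called lower, in place of 1150. Leaving out each library gave 8694 to 8789 higher and 1058 to 1199 lower.

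Each of 3 scalings lowers the median of all genes, and some changes turned below 0 with it. Under median-of-ratios scaling these were Orc3 (-0.63), Orc4 (-0.16), Orc5 (-0.0070), Pold2 (-0.50), Rpa1 (-0.67) and Rpa2 (-0.59). Under quantile normalization they were Orc2 (-0.11), Orc3 (-0.80), Orc4 (-0.38), Orc5 (-0.030), Pold2 (-0.29), Rpa1 (-0.43) and Rpa2 (-0.42). Under ribosomal protein scaling they were Orc2 (-0.58), Orc3 (-1.39), Orc4 (-0.92), Orc5 (-0.78), Gins4 (-0.59), Rfc1 (-0.72), Rfc4 (-0.74), Pola2 (-0.19), Pold2 (-1.28), Rpa1 (-1.45), Rpa2 (-1.36) and Tyms (-0.25).

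The constant bears on most of the ratios. With a constant of 1, 2 of the 17 day 3 minus uninjured differences changed sign, 11 moved in size and 4 stayed about the same. With a constant of 0.01, 6 moved in size and 11 stayed about the same. With a constant of 1, the day 3 minus uninjured difference was -1.09 for the log2 ratio of Mcm10 to Mcm2-Mcm7 and 0.91 for Tipin to Timeless, and the differences for Orc1 (0.32), Orc6 (1.24), Chaf1b (0.07) and Pola2 (-0.92) shrank. Without each library in turn the Tipin to Timeless difference ran from -0.13 to 0.066.

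With the replicate number as a replicate block, 48 of the 52 were called higher, and 8743 of all genes were higher and 1149 lower. Same-numbered libraries correlated at -0.06, 0.09 and 0.02 in their deviations over 14446 genes, and libraries of different number at -0.08 to 0.07. Deviations from a mean of so few libraries cannot decide whether the numbers pair the mice. Depth limits the uninjured levels of the scarcest genes, which rest on as few as 16 reads.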
